A study of Mus musculus with 32 samples.

Results

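The data described here are the microRNAs (miRNAs) of extracellular vesicles (EVs) taken from the peritoneal surface of mice with and without an intraperitoneal ovarian tumor. Sheets of cellulose nanofiber were laid on the pelvic peritoneum and later washed. RNA of the captured EVs was extracted from the sheets with lysis buffer, and the small RNA was sequenced. The 3 tumor-bearing libraries (cancerous peritoneum 1 to 3) came from mice given ID8-T6 cells by intraperitoneal injection, and the 3 normal libraries (normal peritoneum 1 to 3) from mice given PBS; both were sampled at day 14, when no ascites was apparent. ID8 is an epithelial ovarian cancer line derived from C57BL/6 mice, and ID8-T6 is a subclone of it chosen for high metastatic ability in the peritoneal cavity. All hosts were female BALB/cSlc-nu/nu mice of 8 weeks by the labels (8 to 10 weeks at injection by the methods), a nude strain that lacks mature T cells but keeps B cells and myeloid cells. An injected line of 1 strain was thus read in hosts of another, and the control differs from the tumor group in carrying no injected cells at all. The labels call the EV material ascites from the pelvis, and the study's reporting summary states that small RNA samples were taken in triplicate at 1 spot. Whether the 3 libraries of a group came from separate mice is not given in the sources used here, so the spread behind each p-value is that between libraries and may be technical. Of 1513 miRNAs in the table, 1064 had reads in at least 1 of the 6 libraries and 378 reached 10 RPM (reads scaled to a library total of 1000000) in at least 3 of them. Those 378 are the miRNAs described, in 6 of the 32 libraries of the series. The rule set no direction; miR-511-3p, miR-376a-5p and miR-673-5p lay just inside it, with a value, in the library ranked 3 from the top, of 10.1, 10.2 and 10.2 RPM, and miR-3081-3p, miR-126a-5p and miR-1193-3p just outside, at 9.98, 9.74 and 9.30 RPM.

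A miRNA is a short RNA cut from a hairpin precursor, and either arm of the hairpin (the 5p or the 3p strand) can be kept. It finds its messenger RNA targets mainly through the seed, bases 2 to 8 from its 5′ end, so miRNAs with 1 seed share many potential targets even when they come from different genes. Many miRNA genes lie in clusters that are transcribed as 1 long precursor. Cells release miRNAs inside EVs, and the mixture on a serosal surface can come from every cell type that faces the cavity.

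The mature sequences below are from RefSeq (GRCm38.p6), are written 5′ to 3′, and carry the seed in capitals; 333 of the 378 members had an entry under the same name. The first set holds 7 miRNAs with large rises that lie outside the miR-322 and miR-503 cluster, together with miR-21a-5p, the most abundant miRNA of the tumor-bearing libraries.
miR-184-3p: uGGACGGAgaacugauaagggu
miR-31-5p: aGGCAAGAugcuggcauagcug
miR-182-5p: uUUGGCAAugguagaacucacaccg
miR-183-5p: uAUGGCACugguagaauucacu
miR-96-5p: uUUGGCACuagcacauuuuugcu
miR-9-5p: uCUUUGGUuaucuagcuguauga
miR-34a-5p: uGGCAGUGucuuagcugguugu
miR-21a-5p: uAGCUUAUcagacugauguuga

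The second set shows that miR-322-5p, miR-195a-5p and miR-497a-5p, which rose, carry the same seed as miR-15a-5p, miR-15b-5p and miR-16-5p, which were not called on RPM, while miR-503-5p, next to miR-322 on chromosome X, differs from them in the last base of the seed.
miR-322-5p: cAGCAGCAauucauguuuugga
miR-503-5p: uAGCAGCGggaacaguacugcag
miR-195a-5p: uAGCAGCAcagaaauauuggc
miR-497a-5p: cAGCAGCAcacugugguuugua
miR-15a-5p: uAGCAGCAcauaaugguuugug
miR-15b-5p: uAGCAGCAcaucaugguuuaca
miR-16-5p: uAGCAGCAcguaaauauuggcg

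The third set holds 2 seed families. All but miR-20b-5p, which comes from the miR-106a-363 cluster, are cut from the miR-17-92 and miR-106b-25 clusters. The first 5 share 1 seed, and miR-92a-3p and miR-25-3p share another.
miR-17-5p: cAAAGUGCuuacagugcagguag
miR-20a-5p: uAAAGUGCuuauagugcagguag
miR-20b-5p: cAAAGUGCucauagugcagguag
miR-93-5p: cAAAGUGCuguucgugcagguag
miR-106b-5p: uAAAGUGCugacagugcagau
miR-92a-3p: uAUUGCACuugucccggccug
miR-25-3p: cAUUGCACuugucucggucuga

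The fourth set holds the 6 miRNAs with the largest falls, all from 1 imprinted region of chromosome 12, and each with a different seed.
miR-411-5p: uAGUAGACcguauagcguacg
miR-379-5p: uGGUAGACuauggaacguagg
miR-541-5p: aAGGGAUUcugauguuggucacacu
miR-127-3p: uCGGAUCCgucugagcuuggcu
miR-434-5p: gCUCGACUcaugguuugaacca
miR-381-3p: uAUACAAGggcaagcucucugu

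The last set holds close relatives from different loci whose levels parted. miR-10a-5p and miR-10b-5p differ at 1 base of 23, miR-27a-3p and miR-27b-3p at 1 of 21, miR-196a-5p and miR-196b-5p at 1 of 22, and miR-146a-5p and miR-146b-5p at 2 of 22.
miR-10a-5p: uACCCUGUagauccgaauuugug
miR-10b-5p: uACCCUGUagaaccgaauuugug
miR-27a-3p: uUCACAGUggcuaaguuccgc
miR-27b-3p: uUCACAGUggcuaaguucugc
miR-196a-5p: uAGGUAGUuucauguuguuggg
miR-196b-5p: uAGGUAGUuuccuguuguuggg
miR-146a-5p: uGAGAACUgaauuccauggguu
miR-146b-5p: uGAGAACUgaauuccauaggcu
miR-181a-5p: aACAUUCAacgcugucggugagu
miR-181c-5p: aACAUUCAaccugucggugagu
miR-181d-5p: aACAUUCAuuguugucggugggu

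The tumor-bearing libraries held 1155047 to 1585807 reads and the normal ones 701652 to 1075029 reads, so that 1 read was worth 0.631 to 1.43 RPM. Normal library 3 stood apart from the other 2. The 7 miRNAs of red blood cells summed to 134765 RPM there against 3459 and 6049 RPM in normal libraries 1 and 2 and 4525 to 9228 RPM in the tumor-bearing libraries. The pancreatic acinar miRNAs were also high in that library: miR-217-5p was at 4.28, 19.5 and 876 RPM in the 3 normal libraries and miR-216a-5p at 1.43, 2.78 and 147 RPM, whereas no tumor-bearing library exceeded 5.19 RPM for either. The hepatic miR-122-5p was at 191 RPM and miR-375-3p, known from pancreatic islets, at 1203 RPM in the same library. What these miRNAs carried into the other values of that library was not tested beyond leaving it out: without it limma called 68 higher and 149 lower (18% and 39.4% of 378), in place of 61 and 136. Results that rest on it are given with and without it.

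The composition of the EV miRNA pool differed between the groups through 1 molecule above all, miR-21a-5p, a miRNA that is high in many carcinomas and in activated stroma. It was at 362333, 330971 and 318528 RPM in the tumor-bearing libraries, which is 36.2, 33.1 and 31.9% of each, and at 111893, 147402 and 49734 RPM (11.2, 14.7 and 4.97%) in the normal ones. The groups did not overlap, with a log2 change of 1.85 ± 0.37 (SE) and an adjusted p of 0.00432 (two-sided limma test on log2(RPM + 10), the scale of every log2 change given, with Benjamini-Hochberg adjustment over the 378). Its passenger arm miR-21a-3p was at 41.6, 37.1 and 55.4 against 35.6, 32 and 11.2 RPM, and this difference was not called on RPM (adjusted p = 0.131 by limma) but was called higher after the rescaling described next to the counts of calls. The effective number of miRNAs, the exponential of the Shannon entropy of a library, was 22.9, 25.9 and 28.2 in the tumor-bearing libraries and 44.4, 41.8 and 38.8 in the normal ones, a mean of 25.7 ± 2.66 against 41.7 ± 2.77 (SD, n = 3). Every tumor-bearing library was below every normal one (two-sided exact permutation test, p = 0.1, the smallest that 3 against 3 allows). Once miR-21a-5p was set aside the order of the means turned, with 50.8 ± 2.59 in the tumor-bearing and 45.1 ± 5.96 in the normal libraries (exact permutation test, p = 0.2). The libraries then overlapped, at 48.7 to 53.7 with tumor and 38.2 to 48.8 without. The number of miRNAs detected in a library thinned to 701652 reads was 611 to 627 with tumor and 657 to 689 without, although unthinned the counts were 694 to 732 and 683 to 718.

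**Figure D1:**
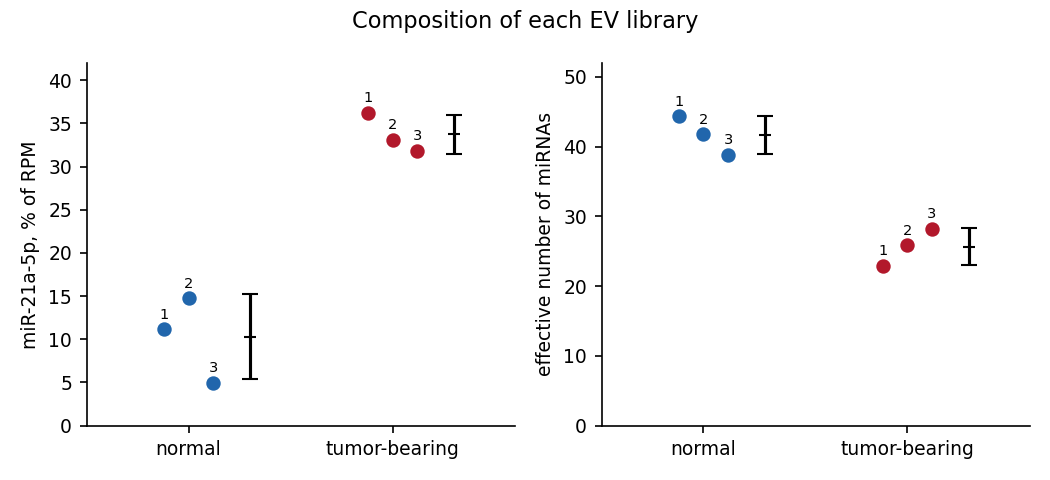
Share of RPM taken by miR-21a-5p (left, percent) and effective number of miRNAs (right) in each of the 6 EV libraries; points are libraries with their replicate number, and the bar is the mean with its SD. The 3 tumor-bearing libraries lie above the 3 normal ones for miR-21a-5p (31.9 to 36.2% against 4.97 to 14.7%) and below them for the effective number.

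After miR-21a-5p, the most abundant miRNAs of the tumor-bearing libraries were miR-148a-3p, miR-27b-3p and miR-30a-5p, with means of 50761 ± 4458, 48764 ± 3114 and 46152 ± 8516 RPM (SD, n = 3). In the normal libraries miR-148a-3p came first, with 108387 ± 33174 RPM. miR-27b-3p, which is best known from the regulation of lipid and vascular genes, was at 52047, 45852 and 48394 RPM against 15030.2, 13231 and 13297 RPM (log2 change 1.82 ± 0.14 (SE), adjusted p = 5.10e-05), and miR-30a-5p at 43975, 55545 and 38935 against 13492, 12730.1 and 19027 RPM (log2 change 1.62 ± 0.22 (SE), adjusted p = 0.000694). Neither pair of groups overlapped. miR-148a-3p was lower with tumor (log2 change -1.06 ± 0.22, adjusted p = 0.00525 by limma), but that call was lost when normal library 3, where it reached 146553 RPM, was left out, and also after rescaling by the median of ratios. The let-7 family, whose members share the seed GAGGUAG, held a like part of both pools: the 9 tested members with that seed summed to 160205, 157111 and 158508 RPM with tumor and 150259.7, 149279 and 186145 RPM without.

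Across the 378 miRNAs, limma called 61 higher and 136 lower in the tumor-bearing EVs at an adjusted p under 0.05 and a change of more than 1 in size on the log2 scale, that is 16.1% and 36% of those tested. In all, 251 had an unadjusted p under 0.05, and 68.5% of the 378 had groups that did not overlap (23.8% with tumor higher and 44.7% with tumor lower). RPM are shares of a fixed total, so that more of 1 abundant miRNA means smaller shares of the others. The median change of all 378 was -0.53, and it was -0.04 after median-of-ratios scaling, which gave 83 higher and 94 lower calls (22% and 24.9%). All 61 miRNAs called higher on RPM were also called higher after scaling, whereas 94 of the 136 lower ones stayed called. On the recovered reads edgeR called 86 higher and 114 lower (22.8% and 30.2%), and DESeq2 96 and 111 (25.4% and 29.4%). RPM recomputed without miR-21a-5p gave 75 and 99 (19.9% and 26.3%), and the replicate block 63 and 130 (16.7% and 34.4%). Of the 136 lower miRNAs, 46 reached 10 RPM in normal libraries only, and of the 61 higher ones 10 in tumor-bearing libraries only, so that for these the filter fixed the direction. The 61 higher miRNAs held 49.6 to 53.8% of the RPM in the tumor-bearing and 11.0 to 19.3% in the normal libraries. Without miR-21a-5p the other 60 held 17.5 to 18.6% against 4.59 to 5.98%. The 136 lower ones held 11.2 to 13.2% against 31.2 to 36.4%.

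**Figure D2:**
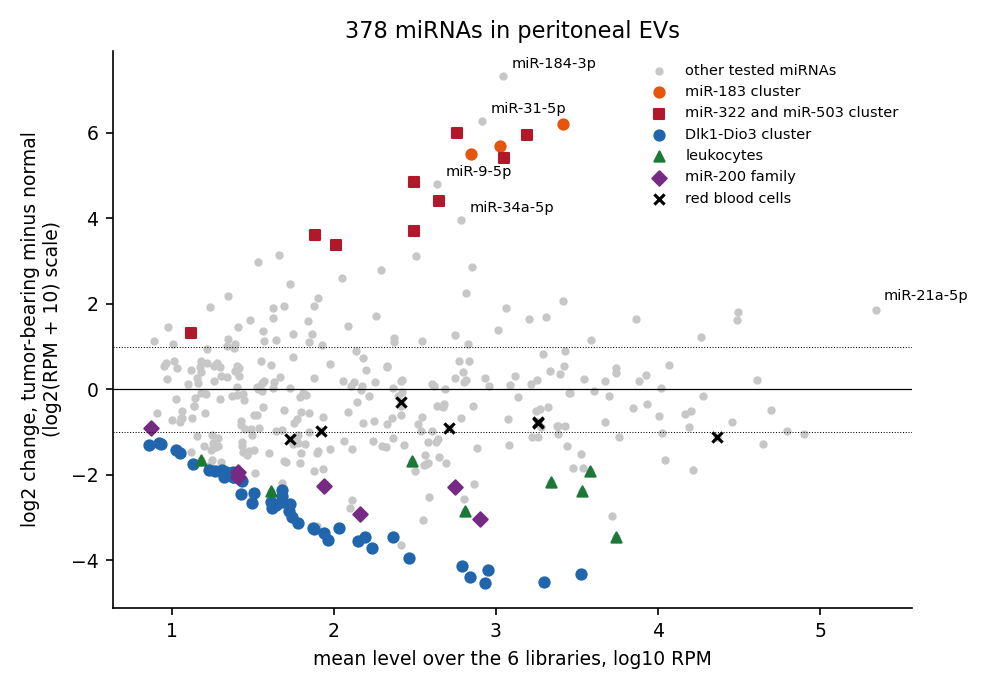
Log2 change between tumor-bearing and normal EVs (vertical, log2(RPM + 10) scale) against the mean level over the 6 libraries (horizontal, log10 RPM) for the 378 miRNAs; colored marks are members of 6 lists and dotted lines mark a change of 1 in either direction. The 3 tested miR-183 cluster and 9 miR-322 and miR-503 cluster members lie above 1, the 44 Dlk1-Dio3 and 8 leukocyte members below −1, and the 7 red blood cell members between -1.16 and -0.30 with none called.

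The largest rise was that of miR-184-3p, known for its abundance in lens and corneal epithelium. It was at 1906, 1721 and 3019 RPM in the tumor-bearing EVs and at 1.43, 5.57 and 3.72 RPM in the normal ones, so that the miRNA was near the limit of detection without tumor (log2 change 7.32 ± 0.30, adjusted p = 8.00e-06 by limma). It reached 10 RPM in tumor-bearing libraries only, so the filter fixed the direction of its change. In tissue it was at 424, 784 and 544 RPM in the tumors and 7.73, 16.8 and 30.1 RPM in normal ovaries. Its gene, Mir184, is a single hairpin on chromosome 9 (89802260 to 89802328, minus strand, GRCm38), outside any host gene of the annotation.

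miR-31-5p, whose gene lies on chromosome 4 (88910557 to 88910662, minus strand) in an exon of a long noncoding RNA, was at 1419, 1800.2 and 1653 RPM with tumor and 5.70, 4.17 and 31.6 RPM without (log2 change 6.28 ± 0.43 (SE), adjusted p = 3.00e-05). The highest normal value was that of normal library 3. Its other arm, miR-31-3p, was at 87.7, 89.3 and 95.2 against 1.43, 0 and 2.79 RPM and rose as well (log2 change 3.15 ± 0.19 (SE), adjusted p = 1.60e-05). That arm reached 10 RPM in tumor-bearing libraries only, so the filter fixed its direction. In tissue miR-31-5p was at 1891, 1774 and 1616 RPM in tumors and 549.6, 499.7 and 211 RPM in ovaries.

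The miR-183 cluster, a single precursor best known from sensory organs, gave 3 tested miRNAs and all 3 rose, with a median change of 5.68 beside -0.53 for all 378. Its hairpins lie within chromosome 6, 30165918 to 30169737, on the minus strand. All 3 were called higher, as were 16.1% of the 378. miR-182-5p was at 5096, 4908 and 5469.9 RPM in the tumor-bearing and 31.4, 73.7 and 88.4 RPM in the normal EVs (log2 change 6.21 ± 0.34 (SE), adjusted p = 1.50e-05). miR-183-5p was at 2143, 1972 and 2186 against 20.0, 29.2 and 49.3 RPM, and miR-96-5p at 1436, 1259.6 and 1427 against 14.3, 18.1 and 31.6 RPM. The 3 thus kept 1 order of level, miR-182-5p above miR-183-5p above miR-96-5p, in each of the 6 libraries. Their summed level, star arms included, was 8688, 8152 and 9092 RPM with tumor and 65.6, 121 and 170.2 RPM without. The log2 change was 5.68 ± 0.29 for miR-183-5p and 5.50 ± 0.27 for miR-96-5p.

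The miR-322 and miR-503 cluster, a set of hairpins on the minus strand of chromosome X (53047997 to 53054349), gave 9 tested miRNAs and all 9 were called higher, with a median change of 4.40; 2 of them reached 10 RPM in tumor-bearing libraries only, and the 4 at 10 RPM or more in all 3 normal libraries were called higher as well. The share called higher over all 378 was 16.1%. miR-322, the rodent counterpart of human miR-424, and miR-503 are known as brakes on cyclins and other cell cycle genes. miR-322-5p was at 2923, 3472 and 2808 RPM with tumor and 45.6, 39 and 34.4 RPM without (log2 change 5.95 ± 0.21 (SE), adjusted p = 7.00e-06). Its other arm miR-322-3p was at 2172, 2525 and 1874 against 55.6, 29.2 and 43.7 RPM, so both arms of this hairpin were abundant with tumor. miR-503-5p was at 1048, 1265 and 1127 against 14.3, 4.17 and 7.44 RPM (log2 change 5.99 ± 0.28 (SE), adjusted p = 1.10e-05). The groups were far apart for every member named here. Further along the cluster, miR-542-3p was at 598, 778 and 453 against 8.55, 9.74 and 14.9 RPM and miR-351-5p at 811, 868 and 905 against 44.2, 20.9 and 31.6 RPM. miR-450a-5p rose by 3.70 ± 0.27 and miR-450b-5p by 3.61 ± 0.21 on the log2 scale. The least abundant member, miR-450b-3p, was at 22.7, 20.5 and 26 against 2.85, 4.17 and 2.79 RPM (log2 change 1.32 ± 0.14 (SE), adjusted p = 0.000226). Over the whole cluster the summed level was 8511, 9951 and 8107 RPM with tumor and 242, 147 and 180.5 RPM without.

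miR-9-5p, a miRNA of the developing nervous system made from 3 genes, was at 849, 999.7 and 691 RPM with tumor and 20.0, 29.2 and 14 RPM without (log2 change 4.80 ± 0.28 (SE), adjusted p = 1.60e-05). miR-34a-5p, a known target of p53, was at 1092, 1273 and 1089 against 67, 62.6 and 64.2 RPM (log2 change 3.96 ± 0.20 (SE), adjusted p = 1.10e-05). All 3 tested members of the miR-34 and miR-449 family rose, but the other 2 were scarce: miR-34c-5p was at 119, 90.9 and 161 against 14.3, 15.3 and 53 RPM and miR-34b-5p at 12.6, 11.9 and 19 against 0, 1.39 and 1.86 RPM. For miR-34b-5p, which reached 10 RPM in tumor-bearing libraries only, the filter fixed the direction. Beside these 3 of 3 members, 16.1% of all 378 were called higher. In tissue the order of miR-34a-5p and miR-34c-5p was the other way round, with miR-34c-5p at 753, 771 and 1178 RPM in tumors and 976, 1075 and 932 RPM in ovaries and miR-34a-5p at 103, 161 and 98.2 and 22.2, 13.1 and 33.2 RPM. miR-210-3p, the miRNA best known for its induction by low oxygen, was at 467, 386 and 587 against 192, 181 and 273 RPM (log2 change 1.12 ± 0.27 (SE), adjusted p = 0.00874), and at a log2 change of 0.97 without tumor-bearing library 3 it was no longer called. miR-383-5p, named after its values were seen, was at 71.9, 68.8 and 64.9 RPM with tumor and had 0 reads in all 3 normal libraries; against the limit of 3 reads over that group it was at least 57.0-fold higher. It passed the filter through tumor-bearing libraries only, which fixed its direction. It also had 0 reads in each of the 5 pelvic sheets taken at day 0 of the orthotopic model. miR-298-5p and miR-296-3p, both from the imprinted Gnas region of chromosome 2 and also named after their values were seen, rose by 1.91 ± 0.19 and 1.37 ± 0.31 on the log2 scale.

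**Figure D3:**
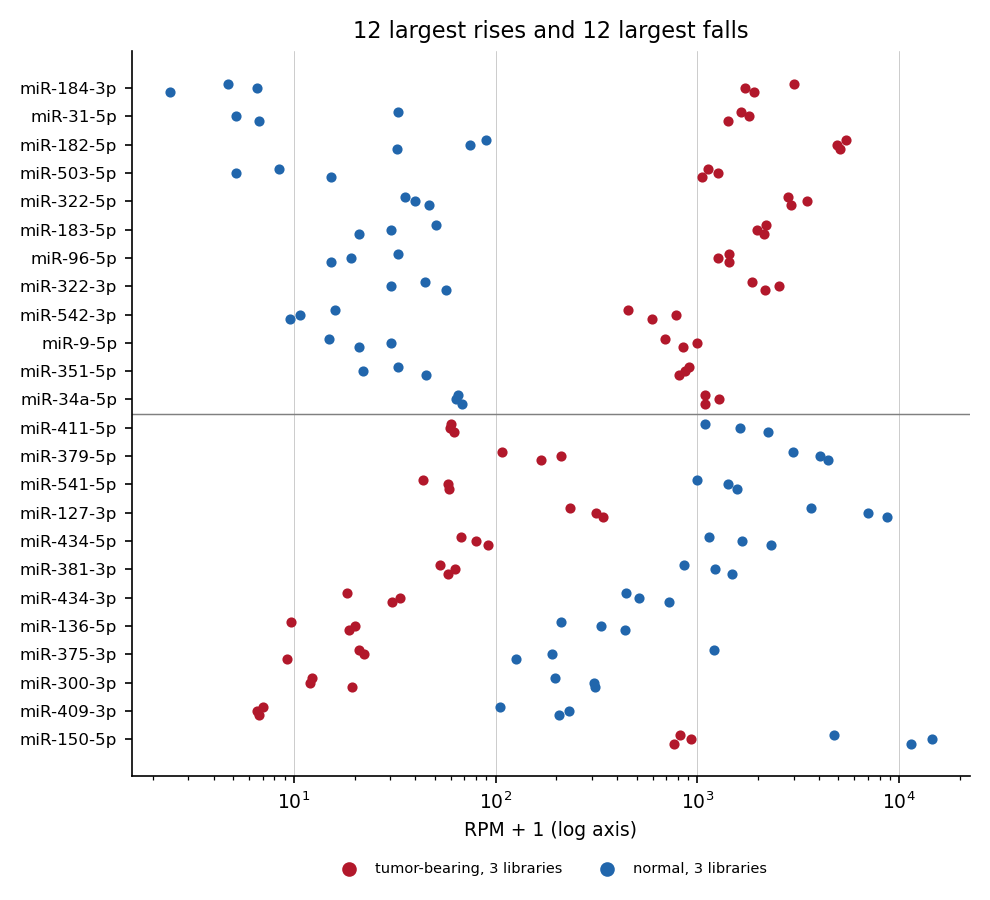
RPM + 1 on a log axis in each library for the 12 largest rises (top) and the 12 largest falls (bottom) among called miRNAs with a mean of at least 100 RPM in the higher group; each point is 1 library, red with tumor and blue without. All 24 were picked among miRNAs whose groups do not overlap, and miR-375-3p in normal library 3 lies far to the right of normal libraries 1 and 2.

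Members of 1 seed family from different loci had different changes. Of the 6 tested miRNAs with the seed AGCAGCA, miR-322-5p, miR-195a-5p and miR-497a-5p rose. miR-195a-5p was at 1196, 1501 and 1043 against 129.7, 117 and 271 RPM (log2 change 2.86 ± 0.35 (SE), adjusted p = 0.000418), and miR-497a-5p, from the same stretch of chromosome 11 (70234717 to 70235135, plus strand), at 319, 368 and 345 against 39.9, 19.5 and 80.0 RPM (log2 change 2.79 ± 0.41 (SE), adjusted p = 0.00101). miR-16-5p, by far the most abundant of the 6, was at 7858, 9404 and 7272 against 6324, 7658 and 7276 RPM, with overlapping groups and no call (adjusted p = 0.346 by limma). miR-15b-5p, not called on RPM, was called higher after scaling (log2 change 1.24) and without normal library 3 (1.08). Within a library, where no scaling enters, the ratio of miR-322-5p to miR-16-5p was 0.372, 0.369 and 0.386 with tumor and 0.00721, 0.00509 and 0.00473 without. The ratio of miR-195a-5p to miR-16-5p was 0.152, 0.160 and 0.143 against 0.0205, 0.0153 and 0.0372. Summed over the 6, the seed was at 13239.9, 15663 and 12541 RPM with tumor and 7069, 8519 and 8617 RPM without. miR-16-5p and miR-195a-5p differ at 2 of 21 bases, and how reads that fit several miRNAs were assigned is not given in the sources used here, so values of such pairs are uncertain; 54 pairs among 77 members were this close (at most 2 mismatches in the aligned overlap).

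In the miR-17-92 cluster and its relative miR-106b-25, which lies in the replication gene Mcm7, both known to promote proliferation, members with different seeds had different changes. Of the 5 tested miRNAs with the seed AAAGUGC, 4 rose: miR-93-5p was at 3808, 4126 and 4452 against 656, 858 and 1690.2 RPM, miR-20a-5p at 3029, 3341 and 2951 against 892, 918 and 1065 RPM, miR-106b-5p rose by 1.90 ± 0.33 and miR-17-5p by 1.40 ± 0.19 on the log2 scale. The exception was miR-20b-5p, from the miR-106a-363 cluster on chromosome X, of which neither of 2 tested members was called. Over all 378 the share called higher was 16.1%. None of the 5 tested miRNAs with the seed AUUGCAC was called on all 6 libraries: miR-92a-3p, cut from the same precursor as miR-17 and miR-20a, was at 1425, 1859 and 2416 against 2695, 3382 and 4258 RPM (log2 change -0.86 ± 0.27, called lower without tumor-bearing library 3 at -1.05 or normal library 1 at -1.03), and miR-25-3p, cut from the same precursor as miR-93, at 5518, 6199 and 6284 against 3171, 3948 and 7864 RPM. The ratio of miR-20a-5p to miR-92a-3p was 2.13, 1.80 and 1.22 with tumor and 0.331, 0.271 and 0.250 without, and that of miR-93-5p to miR-25-3p 0.690, 0.666 and 0.708 and 0.207, 0.217 and 0.215. The 3 tumor-bearing values lay above the 3 normal ones in both. miR-18a-5p, also cut from the miR-17-92 precursor but carrying neither seed, was called higher as well (log2 change 1.12). In that cluster 3 of 7 tested members were called higher. Mature miR-92a-3p is also made from the X-linked cluster, so its reads cannot be given to 1 precursor.

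The miR-181 family also held members of both directions. miR-181a-5p, made from chromosomes 1 and 2 and known from lymphocyte development, was at 1436, 1577 and 1555 against 4851, 4672 and 2474 RPM and was called lower (log2 change -1.33 ± 0.28), a call that was lost after scaling. miR-181d-5p and miR-181c-5p, from chromosome 8 (84178716 to 84178906) in an intron of Nanos3, were at 568, 476 and 669 against 35.6, 29.2 and 149.8 RPM and at 105, 103 and 206 against 14.3, 23.7 and 30.7 RPM, and both rose (3.13 ± 0.54 and 2.13 ± 0.35 on the log2 scale). The ratio of miR-181d-5p to miR-181a-5p was 0.395, 0.302 and 0.430 with tumor and 0.00734, 0.00625 and 0.0605 without, the highest normal value being that of library 3.

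The miR-199 and miR-214 genes gave a further split. miR-199a-5p and miR-214-3p share a noncoding host, Dnm3os on chromosome 1, although miR-199a also has a copy on chromosome 9; all are known from mesenchymal cells. miR-214-3p was at 172, 173 and 236 against 47, 2.78 and 39.1 RPM and rose (log2 change 2.61 ± 0.57 (SE), adjusted p = 0.00585), and miR-199a-5p at 704, 658 and 920.3 against 430.4, 134 and 501 RPM, not called on RPM (adjusted p = 0.0557 by limma) but called higher after scaling and with the replicate number as a block. miR-199b-5p was at 178, 175 and 183 against 637, 630.2 and 389 RPM and was called lower (log2 change -1.54 ± 0.26 (SE), adjusted p = 0.00189), a call lost after scaling. The ratio of miR-199a-5p to miR-199b-5p was 3.95, 3.75 and 5.04 with tumor and 0.676, 0.212 and 1.29 without. miR-199a-3p and miR-199b-3p were not called on all 6 libraries and were called lower without normal library 3.

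**Figure D4:**
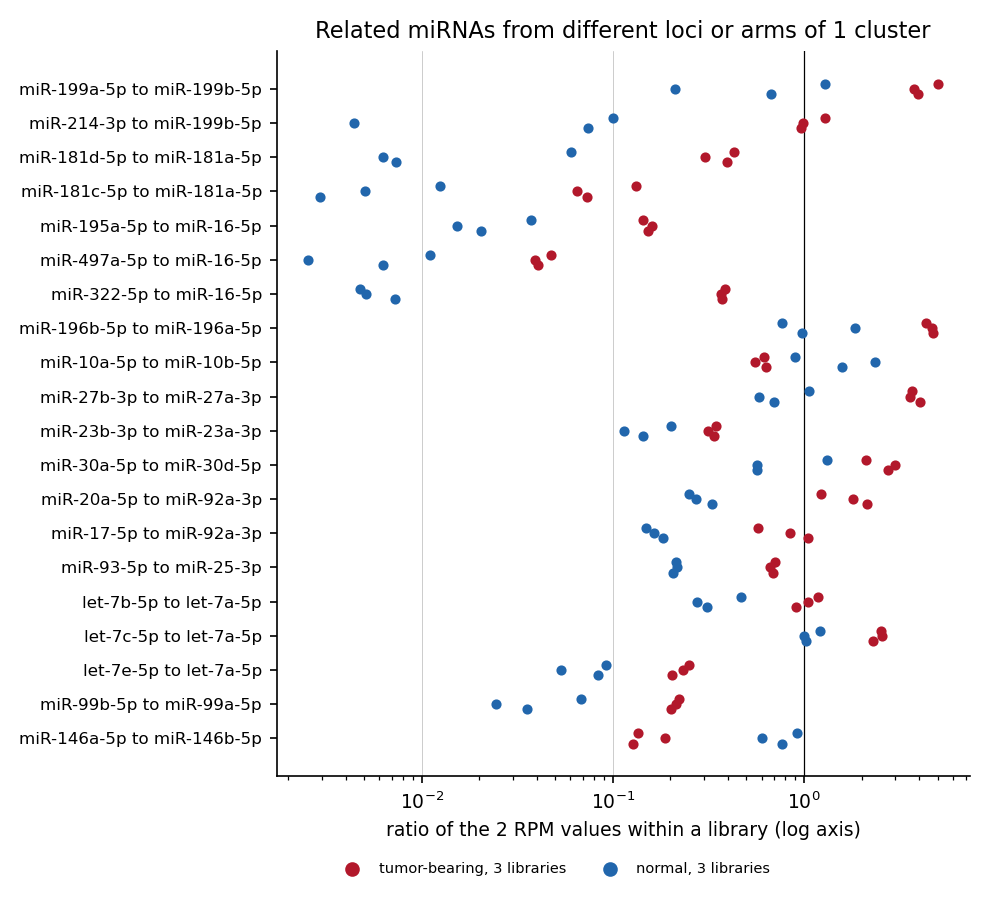
Ratio of 2 related miRNAs within each library (log axis), a value that no scaling between libraries changes; each point is 1 library, red with tumor and blue without, and the vertical line marks equal levels. For every ratio shown the 3 tumor-bearing points do not overlap the 3 normal ones; the pairs were chosen with their values known.

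Among miRNAs of the Hox gene clusters, which mark position along the body axis, miR-10a-5p from the Hoxb cluster on chromosome 11 was at 6100.4, 6116 and 8726 against 28608, 26622 and 21922 RPM and fell (log2 change -1.89 ± 0.21 (SE), adjusted p = 0.000239). miR-10b-5p, which differs from it at 1 base and comes from the Hoxd cluster on chromosome 2, was at 9599, 11079 and 14113 against 18074, 11336 and 24329 RPM and was not called. The ratio of the former to the latter was 0.636, 0.552 and 0.618 with tumor and 1.58, 2.35 and 0.901 without. miR-196b-5p, in an exon of Hoxa9 on chromosome 6 (52230081 to 52230165), was at 945, 1008 and 1169 against 219, 87.6 and 472 RPM and rose (log2 change 2.24 ± 0.54 (SE), adjusted p = 0.00889), whereas miR-196a-5p was at 199, 216 and 269 against 224, 47.3 and 615 RPM with overlapping groups. Of the 7 tested miRNAs of the Hox clusters, 1 rose and 2 fell, shares no larger than those over all 378 (16.1% and 36%), the second fall being miR-10a-3p, whose call was lost after scaling.

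In the let-7 family, the miRNAs known to mark differentiation, 3 of the 10 tested main strands (the 5p arms, miR-98-5p and let-7j included) rose and none of these 10 fell. Over all 378, 16.1% were called higher and 36% lower. Of the minor 3p arms, let-7b-3p (1.15) and let-7e-3p (1.06) were called higher and let-7d-3p (-1.16) lower. let-7b-5p was at 9598, 10464 and 13008 against 3165, 2858 and 4785 RPM (log2 change 1.64 ± 0.24 (SE), adjusted p = 0.00106). let-7e-5p rose by 1.64 ± 0.25 and let-7c-5p by 1.22 ± 0.15 on the log2 scale, while let-7a-5p stayed at 10568, 9978 and 10993 against 10149, 10332 and 10172 RPM. let-7b and 1 of the let-7c genes lie together on chromosome 15 (85706603 to 85707403), and let-7e lies beside miR-99b and miR-125a on chromosome 17 (17830194 to 17830879), in Spaca6. From this second cluster miR-99b-5p also rose, from 2401 ± 381 to 5329 ± 373 RPM (SD, n = 3), while miR-125a-5p and miR-125a-3p were not called (log2 changes 0.37 and 0.44). By contrast, miR-99a-5p, from chromosome 16, was at 24241, 25924 and 25066 against 72277, 80527 and 38792 RPM and was called lower (log2 change -1.28 ± 0.28 (SE), adjusted p = 0.00576), a call lost after scaling. The ratio of miR-27b-3p to miR-27a-3p, which differ at 1 base, was 4.04, 3.59 and 3.69 with tumor and 0.695, 0.578 and 1.06 without; of the 2, miR-27a-3p was not called.

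The largest group of falls came from the imprinted Dlk1-Dio3 region of distal chromosome 12, a maternally expressed stretch of many miRNA genes that is active in embryonic, mesenchymal and neural cells. Of 100 listed miRNAs in the table, 44 were tested and all 44 were called lower, under RPM as after scaling and without normal library 3, with a median change of -2.67 (-2.33 after scaling). The same settings called 36%, 24.9% and 39.4% of all 378 lower. Of the 44, 30 reached 10 RPM in the normal libraries only, so that the filter itself fixed their direction. The 11 that were at 10 RPM or more in all 3 tumor-bearing libraries, and so passed without the normal ones, were all called lower too. By position, 43 tested miRNAs lay between bases 109571990 and 109743795, all 43 fell, and they made up 31.6% of the 136 lower calls. The 100 listed miRNAs together were at 1021, 1050.2 and 745 RPM with tumor and 26472, 21691 and 13791 RPM without. miR-127-3p, the most abundant, was at 341, 314 and 232 RPM with tumor and 8714, 6987 and 3648 RPM without (log2 change -4.33 ± 0.35 (SE), adjusted p = 5.90e-05). It is cut from a transcript antisense to Rtl1, a retrotransposon-derived gene. miR-379-5p, the first of the long cluster to the right, was at 166, 209 and 106 against 4459, 4028 and 2972 RPM (log2 change -4.52 ± 0.30 (SE), adjusted p = 2.50e-05). miR-411-5p was at 61.2, 58.5 and 58.9 against 2230.5, 1625 and 1095 RPM and miR-541-5p at 58, 56.9 and 42.4 against 1568, 1411 and 995 RPM. Normal library 3 was the lowest of the normal libraries for each of these 4, and even there the values were far above every tumor-bearing one. From the Rtl1 side of the region, miR-434-5p, miR-434-3p and miR-136-5p had log2 changes of -4.22 ± 0.30, -3.96 ± 0.30 and -3.71 ± 0.35. miR-381-3p, miR-300-3p and miR-409-3p had changes of -4.13, -3.56 and -3.52. For the scarcest members the added 10 RPM makes the log2 change smaller than the ratio. miR-3071-5p and miR-3071-3p, named from the position table, lie on the strand opposite miR-136, and the authors' use of strand is not given in the sources used here. The 5 day-0 pelvic sheets of the orthotopic model held miR-127-3p at 2999.8 to 9118 RPM and miR-379-5p at 1255 to 4090.5 RPM, and every one of them was above the tumor-bearing libraries. A second imprinted locus, Mest on chromosome 6, carries miR-335 in an intron: miR-335-5p was at 3.78, 0.790 and 10.4 against 58.4, 51.5 and 38.1 RPM and miR-335-3p at 1.26, 0.790 and 5.19 against 45.6, 39 and 23.3 RPM, and both fell. They were named after their values were seen, and miR-335-3p reached 10 RPM in normal libraries only, so the filter fixed its direction.

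miRNAs of leukocytes were lower with tumor. All 8 tested were called lower under RPM, after scaling and without normal library 3 (2 of them reached 10 RPM in normal libraries only), with a median change of -2.27, and their summed level was 4095, 4319 and 4376 RPM with tumor and 30799, 39224 and 12643 RPM without. Those settings called 36%, 24.9% and 39.4% of all 378 lower. miR-150-5p, a marker of mature lymphocytes, was at 766, 925 and 815 against 11412, 14491 and 4779 RPM (log2 change -3.46 ± 0.40 (SE), adjusted p = 0.000334). miR-223-3p, a marker of neutrophils and other myeloid cells, was at 913, 969 and 869 against 5926, 9632 and 1980.4 RPM (log2 change -2.39 ± 0.53 (SE), adjusted p = 0.00645), and miR-142a-5p, found in all blood lineages, at 730.2, 764 and 795 against 4146, 4601 and 2171 RPM. The 3 tumor-bearing libraries lay close together for each of the 3 miRNAs, and normal library 3 was the lowest normal one. In such bulk samples fewer vesicles from a cell type and less of a miRNA per vesicle cannot be told apart. miR-146a-5p, which is induced by NF-κB in immune cells, was at 943, 1299 and 1109 against 11409, 10828 and 5438 RPM (log2 change -2.97 ± 0.32 (SE), adjusted p = 0.000219), whereas miR-146b-5p was at 7386, 6930.4 and 8183 against 14932, 17917 and 5886 RPM with overlapping groups (called lower without normal library 3), and miR-155-5p at 407, 405 and 424 against 529, 515 and 217 RPM. The ratio of miR-146a-5p to miR-146b-5p was 0.128, 0.187 and 0.136 with tumor and 0.764, 0.604 and 0.924 without. miR-139-5p, which was named after its values were seen, was at 1069, 1019 and 1271 against 5940.3, 7259.6 and 1495 RPM (log2 change -1.84 ± 0.56 (SE), adjusted p = 0.0248), again with normal library 3 nearest to the tumor-bearing ones. That call was lost without any 1 library other than normal library 3, the log2 change then lying between -1.93 and -1.41.

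miRNAs of red blood cells were not called in either direction on all 6 libraries. miR-451a was at 3635, 7799 and 5821 RPM with tumor and 2903, 5137 and 113085 RPM without, so that its mean was set by normal library 3. Without that library miR-451a had a log2 change of 0.51 and miR-144-5p turned from -0.30 to 1.21 and was called higher.

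The miR-200 family, which holds epithelial cells in their state by repressing Zeb1 and Zeb2, was lower with tumor: 6 of 7 tested members were called lower, 3 of the 7 reaching 10 RPM in normal libraries only, with a median change of -2.27 and the same 6 calls under RPM, after scaling and without normal library 3. The shares called lower over all 378 were 36% on RPM, 24.9% after scaling and 39.4% without normal library 3. miR-200b-3p was at 124, 129.6 and 254 against 1276, 1055 and 1965 RPM (log2 change -3.03 ± 0.36 (SE), adjusted p = 0.000369). miR-200a-3p was at 153, 134 and 281 against 1010.5, 721 and 1047 RPM and miR-200c-3p at 15.8, 16.6 and 19.9 against 137, 91.8 and 583 RPM, with the highest value again in normal library 3. Both loci of the family, on chromosome 4 (miR-200b, miR-200a and miR-429) and chromosome 6 (miR-200c and miR-141), thus gave falls. miR-200b-5p was the member not called (-0.92 ± 0.13), although edgeR and DESeq2 called it lower on the recovered reads. miR-203-3p, a miRNA of stratified epithelium, was at 165, 214 and 152 against 1009, 1322 and 954 RPM (log2 change -2.56 ± 0.24 (SE), adjusted p = 0.000117). miR-375-3p was at 8.20, 21.3 and 19.9 against 125, 189 and 1203 RPM (log2 change -3.64 ± 0.79), and -2.67 without normal library 3, where it was still called. miR-205-5p was at 7.57, 3.95 and 75.3 against 103, 32 and 147 RPM and was not called, except with the replicate block (-1.72) and without tumor-bearing library 3 (-2.53), where it was lower.

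miR-126a-3p, the endothelial miRNA in Egfl7, was at 58.6, 41.1 and 90.0 against 428, 387 and 1132 RPM (log2 change -3.05 ± 0.47 (SE), adjusted p = 0.00128). In tissue it was among the abundant miRNAs, at 22068, 25886 and 20895 RPM in tumors and 44785, 46525 and 48349.6 RPM in ovaries. All 4 tested muscle miRNAs were called lower, beside 36% over all 378. Of the 4, 1 reached 10 RPM in normal libraries only, so that the filter fixed its direction. Of the others, miR-1a-3p was at 1495, 1008 and 1898 against 6087, 3247 and 6896 RPM (log2 change -1.85 ± 0.36 (SE), adjusted p = 0.00348), miR-133a-3p fell to 113 ± 60.3 from 664 ± 213 RPM (SD, n = 3), and miR-206-3p was at 19.5, 12.6 and 52.8 against 238, 87.6 and 368 RPM. miR-143-3p, a miRNA of smooth muscle and fibroblasts, was at 4000.5, 3249 and 6869.9 against 29803, 5514 and 16689.8 RPM. It was called lower on RPM (adjusted p = 0.0472 by limma), but its groups overlapped, and the call was lost after scaling and without any of tumor-bearing libraries 1 (-1.56) and 2 (-1.42) and normal libraries 1 (-1.10) and 3 (-1.52); all 4 calls of the miR-143 and miR-145 pair were lost after scaling, 1 held without normal library 3 and 3 held with the replicate block, which ended that of miR-143-5p. miR-221-3p and miR-222-3p, neighbours on chromosome X that repress the cell cycle inhibitor p27, had changes of -1.31 ± 0.22 and -1.76 ± 0.31, and after scaling miR-222-3p alone of them was called. In the miR-29 family, known to repress collagens, 3 of 5 tested members fell and 1 of them after scaling, beside 36% and 24.9% called lower over all 378. Of these, miR-29a-3p was at 6255, 6881 and 7696 against 15555, 16591 and 10531 RPM and was no longer called without tumor-bearing library 1 (-0.94), normal library 1 (-0.93) or normal library 2 (-0.89). The gonadal list had no tested member. The neuronal list had 2 of 2 lower, miR-128-3p and miR-129-5p, beside the same 36% over all 378. Of these 2, 1 reached 10 RPM in normal libraries only, so that the filter fixed its direction, and miR-128-3p was not called with the replicate number as a block or by edgeR. Leaving out tumor-bearing library 1 or 2 ended both calls, as did leaving out normal library 2, with log2 changes of -1.47, -1.47 and -1.55 for miR-128-3p and -1.35, -1.42 and -0.91 for miR-129-5p, and without normal library 1 that of miR-128-3p was lost as well (-1.57).

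In other families the count of calls changed with the scaling or the tool. Over all 378, 16.1% were called higher and 36% lower on RPM, and 22% and 24.9% after scaling. By edgeR 22.8% of the 378 were called higher, and by DESeq2 25.4%. In the miR-30 family, known from kidney and epithelial differentiation, 2 of 11 tested members rose and 1 fell on RPM (3 and 0 after scaling), with a median change of -0.05. In the miR-23 and miR-24 and miR-27 family 2 of 9 were called higher on RPM, 5 after scaling and 6 by edgeR and by DESeq2. In the miR-130 and miR-301 family 2 of 5 were called higher on RPM and 4 by edgeR and by DESeq2, and none lower. Of these 5, 2 reached 10 RPM in tumor-bearing libraries only, so that the filter fixed their direction. The hepatocyte list had 1 tested member, miR-122-5p, which was not called and was at 1.89, 0 and 71 RPM with tumor and 1.43, 20.9 and 191 RPM without.

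Both arms of a hairpin come from 1 precursor. Of 106 hairpins with both arms tested, 12 had both arms higher, 28 both lower, 23 a single arm called and 43 neither, and no hairpin had its arms called in opposite directions. Single miRNAs were called higher in 16.1% and lower in 36% of the 378. The filter fixed the direction of 46 of the 136 lower and 10 of the 61 higher miRNAs. For hairpins with such arms, part of the agreement was set by the filter. Hairpins of the Dlk1-Dio3 region, such as miR-127 and miR-379, were among those with both arms lower. In miR-30a, 1 of the hairpins with a single arm called, the ratio of miR-30a-5p to miR-30a-3p was 129, 155 and 76.7 with tumor and 22.5, 23.2 and 41.6 without, and miR-30a-3p was not called. Of 42 seeds shared by at least 2 tested members, 2 held both higher and lower members, those of miR-181 and of miR-99 and miR-100. The median length was 22 bases among higher, lower and uncalled miRNAs alike, and the median GC content was 46.5, 45.5 and 47.5% (58, 117 and 158 sequences).

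The study also sequenced 3 tumors of intraperitoneally transplanted mice and 3 normal ovaries of PBS controls, and the change in EVs was set against the change in tissue in 1 model over the 12 libraries. The tissue contrast compares tumor with a different organ, so its change is not that of ovary becoming tumor. Tumor tissue 2 held pancreatic miRNAs too, with miR-217-5p at 2.38, 4705 and 54.6 RPM in the 3 tumors, and tumor tissue 3 held the ovarian miR-202-5p at 619 RPM against 0 and 2.07 RPM in the other 2. The miR-192, miR-194 and miR-215 family summed to 30281, 31780 and 1097 RPM in tumors 1, 2 and 3, and to 845, 779 and 636 RPM in the ovaries. The source of these miRNAs was not tested. Of 422 miRNAs tested, 58 had a more positive and 116 a more negative change in EVs than in tissue, 13.7% and 27.5%, together 41.2%. Tissue alone gave 47 higher and 37 lower of 357 (13.2% and 10.4%). After median-of-ratios scaling the split was 80 and 84. Of the 61 higher EV miRNAs 44 were among the former, and of the 136 lower ones 84 were among the latter. The difference contains the EV change itself, from the same EV libraries, so part of this overlap was fixed in advance. The same holds for the lists counted below. The miR-322 and miR-503 cluster led the first group. miR-322-5p was at 133, 70.3 and 246 RPM in tumors and 153, 144 and 211 RPM in ovaries, and the difference of changes was 6.26 ± 0.50 (SE), adjusted p = 5.34e-06 by limma. For miR-503-5p it was 6.13 ± 0.48 (SE), adjusted p = 4.75e-06, for miR-322-3p 6.11, for miR-542-3p 5.91 and for miR-351-5p 5.67. The tumor-bearing EVs thus held 2808 to 3472 RPM of miR-322-5p and the tumors themselves 70.3 to 246 RPM. The miR-183 cluster was higher with tumor in both materials, miR-182-5p being at 2511, 2509.8 and 1884 RPM in tumors and 545, 514 and 544 RPM in ovaries.

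Among the more negative differences, miR-215-5p, an intestinal and p53-responsive miRNA, was at 17049.5, 15753 and 256 RPM in tumors and 5.80, 5.60 and 7.12 RPM in ovaries, and at no more than 12.1 RPM in any EV library, which kept it out of the 378 (difference -8.37 ± 1.70 (SE), adjusted p = 0.00229). miR-223-3p was at 86.8, 434 and 126 RPM in tumors and 25.1, 17.7 and 29.3 RPM in ovaries, higher with tumor in tissue and lower with tumor in EVs (-4.81 ± 0.83 (SE), adjusted p = 0.000773 by limma), and the leukocyte list as a whole had 8 of 8 members called in this direction, also after scaling. In tissue alone, miR-223-3p, miR-142a-5p and miR-142a-3p were called higher in tumors and the other tested members were not called. miR-146a-5p (-4.01), miR-206-3p (-5.48) and miR-375-3p (-6.30) followed; for miR-375-3p the tumor values were 477, 12623 and 223 RPM, so that tumor 2 set the mean. Of the Dlk1-Dio3 list 43 of 47 members had a more negative change in EVs (39 after scaling), and miR-127-3p was at 1257, 1145 and 1342 RPM in tumors and 1807, 1947 and 2015 RPM in ovaries. A more negative change in EVs was called for 27.5% of all 422 miRNAs tested.

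**Figure D5:**
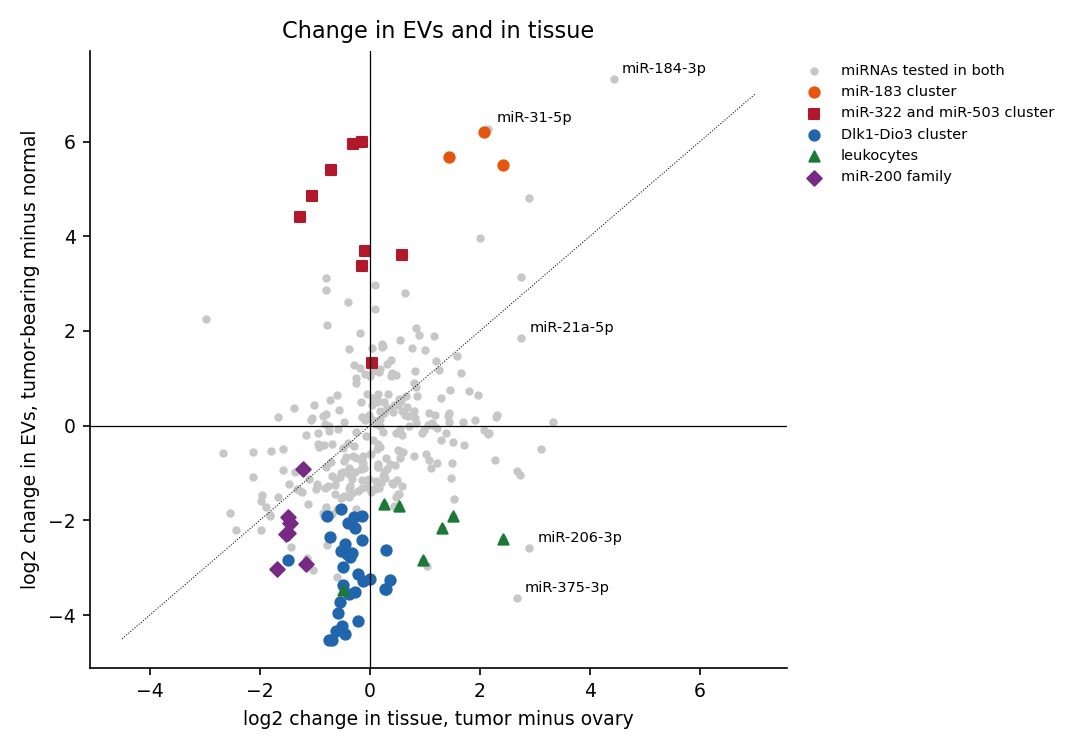
Log2 change with tumor in EVs (vertical) against the log2 change between tumors and normal ovaries (horizontal), both on the log2(RPM + 10) scale, for miRNAs tested in both; the dotted line marks equal change. The miR-322 and miR-503 cluster lies high in EVs and between -1.26 and 0.59 in tissue, and the leukocyte miRNAs lie below 0 in EVs and, apart from miR-150-5p, above 0 in tissue.

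The 5 pelvic sheets taken at day 0 of the orthotopic model, gave the levels of these miRNAs in a further set of sheets. In that model ID8 cells are injected into the ovarian bursa, and the sheets are labelled day 0 of the transplantation. They belong to another experiment, so the values are set beside each other with no test. miR-184-3p was at 2.71, 4.09 and 9.04 RPM (lowest, median and highest), miR-182-5p at 14.3, 16.3 and 31.5 RPM and miR-322-5p at 21.8, 53.9 and 123 RPM. For each of the 3 the highest day-0 sheet was far below the lowest tumor-bearing one. miR-21a-5p was at 83399.6, 114121 and 129815 RPM, miR-150-5p at 4993, 7969.5 and 9537 RPM and miR-451a at 562, 3881 and 45679 RPM. The highest day-0 value of miR-451a lay above 5 of the 6 libraries and below normal library 3.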

How the data were processed

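Small RNA of EVs captured in cellulose nanofiber sheets and of tissue was sequenced by the authors. They used CLC Genomics Workbench to trim adapters and to match reads, allowing 2 mismatches, with the mature miRNAs of miRBase 22. The values the authors deposited are RPM per miRNA (reads scaled to a library total of 1000000), and how reads that fit several miRNAs were counted is not given in the sources used here. The RPM are whole multiples of 1 read in 100% of values (tolerance 0.001 read), so the reads and the depth of each library (701652 to 1585807 in the 6 EV libraries) were recovered from the deposited RPM. Libraries with few reads resolve low miRNAs less well; limits from a count of 0 use 3 reads and cover counting error only.

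miRNAs with at least 10 RPM in at least 3 of the 6 libraries were compared on log2(RPM + 10) by two-sided tests of limma 3.58.1 with its mean-variance trend, run under R 4.3.3, with Benjamini-Hochberg adjustment over all 378. A call needs an adjusted p under 0.05 and a change over 1 in size. Alternatives were median-of-ratios scaling, RPM without miR-21a-5p, edgeR 4.0.16 and DESeq2 1.42.0 on recovered reads, pseudocounts of 1 and 50 RPM, no filter or 100 RPM, each library left out, and the replicate number as a block. The EV and tissue changes were compared by an interaction term over 12 libraries. Same-numbered tumor and normal EV libraries deviated together weakly (correlations 0.271, 0.169 and 0.254 for numbers 1, 2 and 3), so the block is given where it changes a call. A pairing by number is not given in the sources used here. Limma after median-of-ratios scaling, edgeR and DESeq2 were checked on simulated data with known changes. Limma on unscaled RPM, which gave the main calls, and the interaction term were not checked in this way.

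The miRNAs named are, per direction, the 12 largest changes among called miRNAs with a mean of at least 100 RPM in the higher group and no overlap, the 10 highest means in each group, up to 4 of the most abundant tested members of each list, up to 5 per direction of the EV and tissue comparison, and other arms or cluster members of these. The members and lists were chosen with earlier results of these data known. Positions and sequences are from RefSeq (GRCm38.p6), and host genes from GENCODE M21.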

Additional observations from a re-analysis of the deposited data

Results flagged for a closer look

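With tumor, the changes of 10 miRNAs differed between EVs and tissue by the interaction test of limma, 5 in each direction, named as the largest with a mean of at least 100 RPM in 1 of the 4 groups. The difference is the log2 change in EVs minus that in tissue. The first 5 come from the miR-322 and miR-503 cluster and were more positive in EVs: miR-322-5p (6.26), miR-503-5p (6.13), miR-322-3p (6.11), miR-542-3p (5.91) and miR-351-5p (5.67). For miR-351-5p the tissue values were 412, 153 and 704 RPM in tumors and 797, 887 and 928 RPM in ovaries, against 811, 868 and 905 and 44.2, 20.9 and 31.6 RPM in EVs, and for miR-542-3p 49.9, 35.1 and 71.7 and 134, 127 and 90.2 RPM in tissue.

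The other 5 were more negative in EVs: miR-215-5p (-8.37), miR-375-3p (-6.30), miR-206-3p (-5.48), miR-223-3p (-4.81) and miR-146a-5p (-4.01). Single tumor libraries lay far apart for miR-215-5p (tumor tissue 3, at 256 RPM) and for miR-375-3p (tumor tissue 2, at 12623 RPM). Without tumor tissue 2 the differences were -7.40 and -4.56, both still called. For miR-215-5p this does not leave out the library that lay apart. miR-206-3p was at 103, 126 and 70.1 RPM in tumors and 5.80, 6.54 and 1.58 RPM in ovaries, and miR-146a-5p at 4141, 11658 and 4426 and 3105, 3229 and 2469 RPM. The tissue contrast sets tumor against another organ, so that the tumor and the organ cannot be told apart in it.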

How the results depend on the processing

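All 61 rises kept their call under median-of-ratios scaling, edgeR and DESeq2, and 93 of the 136 falls did. The number called higher was 40 with a pseudocount of 50 RPM, 37 with a filter of 100 RPM (fewer miRNAs tested) and 96 by DESeq2; the number called lower was 79 and 64 under the first 2 of these. Leaving out 1 library gave 56 to 68 higher and 112 to 149 lower. For the comparison of EVs with tissue the count of 174 was 111 with the 100 RPM filter and 142 to 201 with 1 library left out. The effective number of miRNAs differed by -15.99 with tumor (-17.40 to -14.61 with 1 library left out) and turned to 5.75 without miR-21a-5p. The change of miR-144-5p ran from -1.22 to 1.21 with 1 normal library left out, positive without normal library 3. With the replicate number as a block, 63 were called higher, 130 lower and 155 in the EV and tissue comparison, and 208 of 213 named results kept their side of the threshold. Among those described, miR-128-3p and miR-143-5p lost their call and miR-199a-5p and miR-205-5p gained one. The causes were not tested. Depth limits miRNAs near 10 RPM.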
